A study of Rattus norvegicus with 10 samples.

Results

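The genes described here are 9 glutathione transferase genes of RCS cells. RCS is a line grown from a rat chondrosarcoma, and its cells lay down a matrix like that of cartilage. They are Gsta1, Gstm1, Gstm2, Gstm4, Gstp1, Gstt1, Gstz1, Gstk1 and Mgst2, and each was found by its symbol as 1 row in a table of 10184 genes. The study compared wild-type (WT) RCS cells with RCS cells in which ARSL had been knocked out (ARSL KO); ARSL encodes arylsulfatase L, which belongs to the sulfatases that pass through the secretory pathway. Each genotype had 5 libraries, which the labels call biological replicates, and RNA was taken 48 h after seeding from cells grown in DMEM with fetal bovine serum, antibiotics and glutamine. None of the samples received a treatment. The labels do not say whether the knockout cells came from 1 clone or from several, so an effect of the knockout cannot be told apart from another difference between the lines. The set was picked because several of its genes were lower in the knockout. For that reason the differences of these 9 genes between genotypes are given as a description, without a test, and tests are given for other genes: those of the pathway, cell type markers and chromosomal neighbours.

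Glutathione transferases join the thiol of glutathione to electrophilic compounds, which makes them more soluble and ready for export. The cytosolic enzymes fall into classes named by letters: alpha (Gsta), mu (Gstm), pi (Gstp), theta (Gstt) and zeta (Gstz). The kappa enzyme (Gstk1) lies in mitochondria and peroxisomes. Mgst2 belongs to a separate family of membrane proteins of the endoplasmic reticulum, the MAPEG family, and can also make leukotriene C4 and reduce lipid hydroperoxides. Many genes of glutathione use are switched on by the transcription factor NRF2 (Nfe2l2), which binds the antioxidant response element, with the core TGACNNNGC, where N is any base.

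Promoters were looked at because several of the 9 genes moved in the same direction. RefSeq promoter windows of the rat build GRCr8, reaching from 250 bases before to 50 bases after the gene start, were matched by symbol for 7 of the 9 genes. Mgst2 and Gstt1, for which every knockout library was below every WT library, had no window under their symbol. The core TGACNNNGC, searched on both strands, was present in 3 of these 7 windows (Gsta1, Gstp1 and Gstz1), beside 12.1% of all 33469 windows of that length. Each of the 3 matches is written 5′ to 3′ on the gene's strand with the matched bases in capitals, since these are the stretches the count rests on; in Gstz1 the match is on the opposite strand.
Gsta1, chr9:31216484-31216512, minus strand: aactcaggcaTGACTTTGCatttttcttc
Gstp1, chr1:210769748-210769776, minus strand: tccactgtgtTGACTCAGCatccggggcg
Gstz1, chr6:112525365-112525393, plus strand: cttgtccgctGCCCCGTCAaggagtcgta
The match lay from -61 to -53 relative to the start in Gstp1 and from -231 to -223 in Gstz1, whereas in Gsta1 it lay after the start, from 31 to 39. The Gstp1 match also holds TGACTCA, the binding motif of AP-1, which was found in 1 of the 7 windows and in 4.63% of all windows. The windows of Gstm1, Gstm2, Gstm4 and Gstk1 did not hold the core. These are matches of letters only, and bases outside the windows were not searched. The data here include no measure of binding, and of the 3 genes with a match Gsta1 was lower in every knockout library, while Gstp1 and Gstz1 overlapped between genotypes.

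The 250 bases before the start are given for Gstp1, the gene of the set with the core upstream and close to its start (chr1:210769706-210769955, GRCr8, minus strand, core in capitals), and for Gsta1, the cytosolic gene with the largest difference (chr9:31216533-31216782, GRCr8, minus strand, no core in this stretch).
Gstp1: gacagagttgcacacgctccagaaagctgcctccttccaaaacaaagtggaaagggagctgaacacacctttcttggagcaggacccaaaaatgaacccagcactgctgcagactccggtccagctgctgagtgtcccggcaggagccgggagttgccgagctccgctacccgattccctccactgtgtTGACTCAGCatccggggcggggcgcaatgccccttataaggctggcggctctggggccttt
Gsta1: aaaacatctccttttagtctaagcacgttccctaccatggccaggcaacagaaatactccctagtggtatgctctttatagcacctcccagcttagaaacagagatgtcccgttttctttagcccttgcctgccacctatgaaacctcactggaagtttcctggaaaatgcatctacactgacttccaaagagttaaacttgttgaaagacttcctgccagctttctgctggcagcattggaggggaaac

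The deposited values are on a log2-like, variance-stabilized scale on which small read numbers are compressed. They inverted to whole reads, and levels are given below as normalised reads, the recovered reads divided by the size factor of the library. Libraries held 2065594 to 2591819 recovered reads. The first principal component, with 51.1% of the variance, set WT 3 and WT 4 (scores 28 and 26.8) and, less so, ARSL KO 4 (7.91) apart from the other 7 libraries, which scored from -15.0 to -2.96. The sources used here do not say what sets these 3 libraries apart, so each main result is given with and without them. These 3 libraries were picked out from these same data for standing apart. Differences, p-values and counts of called genes without them are therefore a description. The targeted gene was looked up as Arsl and as Arse, found under neither, and is not analysed here. Of 15 chondrocyte markers 13 had a row, Col2a1 and Acan among them but not Sox9 or Snorc, and their summed level was 47542 to 79860 normalised reads in WT and 43111 to 56753 in ARSL KO. Of the markers of other cells 2 of 10 for fibroblasts, 2 of 10 for leukocytes and 2 of 8 for endothelium had a row, with sums of at most 49.2, 19.7 and 47.0 normalised reads in any library. Genes were looked up by symbol and 813 rows carried none, so a gene without a row is not shown to be absent.

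Mgst2, the microsomal enzyme, differed most between the genotypes. It had 257, 236, 625, 615 and 284 normalised reads in WT 1 to 5 and 151, 102, 54.5, 139.6 and 27.8 in ARSL KO 1 to 5. Every knockout library was below every WT library, WT 3 and WT 4 were the highest of all, and ARSL KO 5 was the lowest. The means were 403 ± 198 in WT and 95.1 ± 53.3 in ARSL KO (SD, n = 5 each), 4.24-fold lower in the knockout, or 1.74 lower on the log2-like scale (SE 0.318). Without WT 3, WT 4 and ARSL KO 4 the means were 259 and 83.9, a 3.09-fold difference. The knockout libraries differed among themselves by up to 5.44-fold, the widest span of the 9 genes within the knockout.

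Gsta1, the alpha-class enzyme, was lower in the knockout with little spread in WT. It had 139, 122, 142, 109.9 and 119 normalised reads in WT 1 to 5 and 24.7, 30.4, 46.2, 50.7 and 50.2 in ARSL KO 1 to 5. The groups were far apart, and within the knockout ARSL KO 1 and ARSL KO 2 were the lowest. The means were 127 ± 13.8 and 40.4 ± 12.1 (SD, n = 5 each), 3.13-fold lower in the knockout, or 1.12 lower on the log2-like scale (SE 0.124). In contrast to Mgst2, Gsta1 was not raised in WT 3 and WT 4, whose mean was 0.993 times that of WT 1, WT 2 and WT 5, and the difference without the 3 libraries was 3.35-fold.

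Gstt1, the theta-class enzyme, had 34.0, 34.8, 31.7, 43.0 and 29.6 normalised reads in WT 1 to 5 and 20.4, 17.4, 13.8, 17.6 and 17.04 in ARSL KO 1 to 5. All knockout libraries were below all WT libraries, and both groups were narrow. The means were 34.6 ± 5.11 and 17.2 ± 2.33 (SD, n = 5 each), 2.01-fold lower in the knockout and 1.91-fold without the 3 libraries. The counts behind these values were small, 28 to 45 reads in WT and 15 to 19 in ARSL KO.

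Gstm2, a mu-class enzyme, was near the lower limit of what was tested, a mean of about 10.7 normalised reads. It had 11.3, 10.6, 25.2, 25.8 and 10.6 normalised reads in WT 1 to 5 and 7.51, 7.60, 6.46, 9.76 and 7.17 in ARSL KO 1 to 5. The groups did not overlap, but only by a margin of less than 1 normalised read between WT 5 and ARSL KO 4. Its 2.17-fold lower mean in the knockout (16.7 ± 8.03 against 7.70 ± 1.23, SD, n = 5 each) became 1.51-fold without the 3 libraries, since WT 3 and WT 4 were 2.35 times the other WT libraries.

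Gstp1, the pi-class enzyme, which also binds and restrains the kinase JNK, overlapped between the genotypes. It had 644, 626, 1566, 1462 and 748 normalised reads in WT 1 to 5 and 609.8, 583, 572, 978 and 519 in ARSL KO 1 to 5. WT 3, WT 4 and ARSL KO 4 were the 3 highest libraries, in the same order as on the first principal component of all genes. The mean was 1.55-fold lower in the knockout with all libraries and 1.18-fold lower without those 3, where the knockout libraries were all below the remaining WT libraries.

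**Figure D1:**
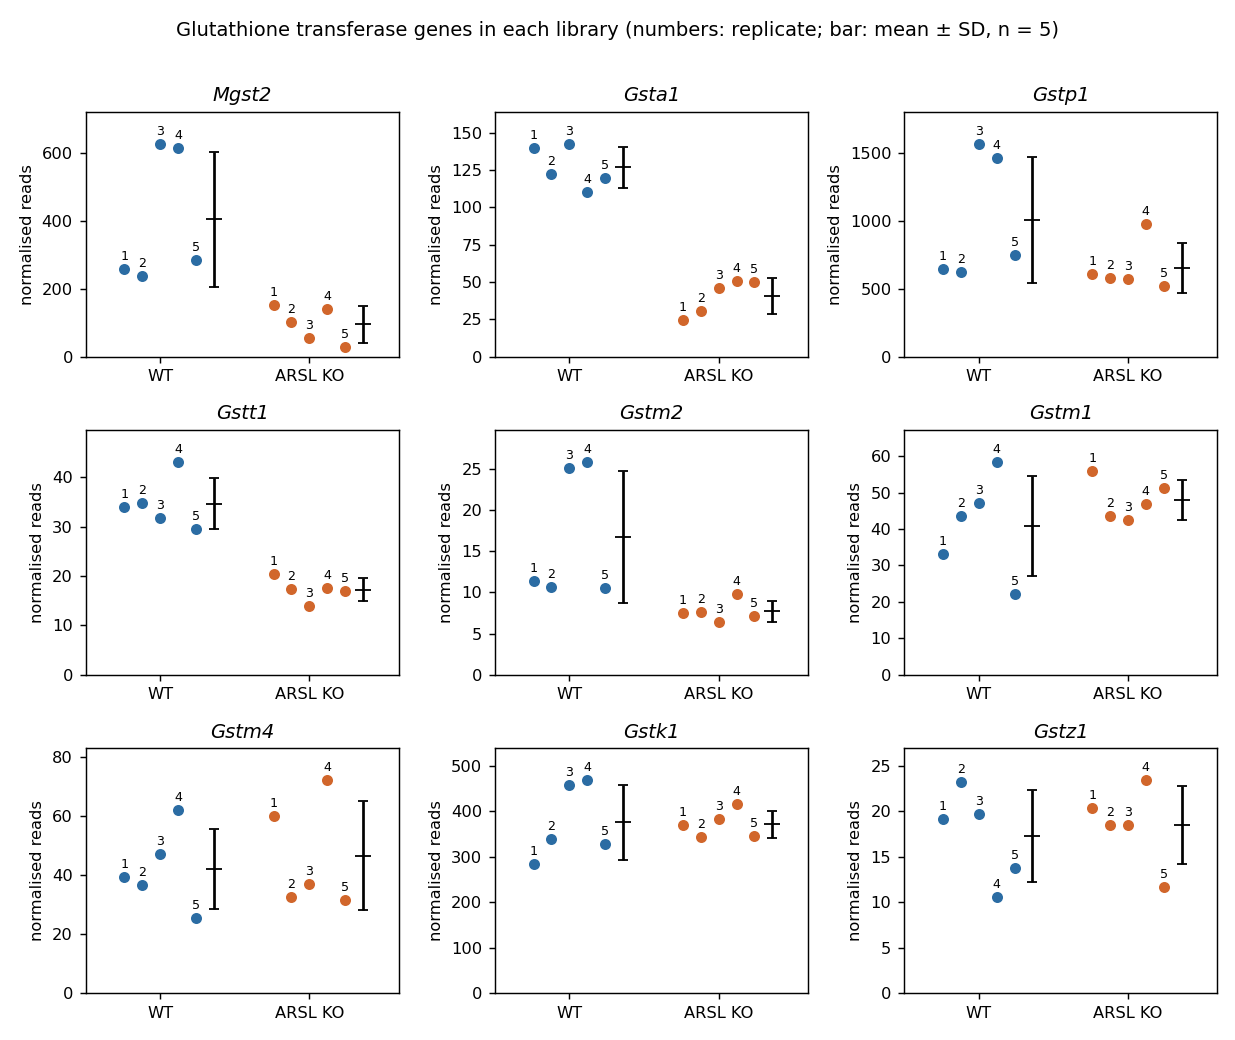
Normalised reads of the 9 genes (y axes, each from 0) in the 5 WT libraries (blue) and the 5 ARSL KO libraries (orange); numbers are replicates and bars are the mean ± SD. Mgst2, Gsta1, Gstt1 and Gstm2 have no overlap between the groups, and WT 3 and WT 4 stand high for Mgst2, Gstp1 and Gstm2 but not for Gsta1.

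The other 4 genes overlapped between the genotypes and had a mean slightly higher in the knockout on the log2-like scale. Gstm1 spanned 22.2 to 58.3 normalised reads in WT and 42.5 to 55.8 in ARSL KO, and its difference was 0.16 (SE 0.131), or 0.32 (SE 0.135) without the 3 libraries. Gstm4 spanned 25.4 to 62.1 in WT and 31.4 to 72.2 in ARSL KO, with a difference of 0.07 (SE 0.163), or 0.13 (SE 0.143) without the 3 libraries. The sign for Gstm4 was not stable, with -0.03 without ARSL KO 4 and -0.02 without WT 5, whereas Gstm1 stayed above 0 with any 1 library left out (0.05 to 0.24). Gstk1, the kappa enzyme, spanned 283 to 468 in WT and 343 to 417 in ARSL KO, with a difference of 0.0059 (SE 0.125) that ran from -0.08 to 0.08 with 1 library left out. Without the 3 libraries the Gstk1 difference was 0.17 (SE 0.091). Gstz1, which as maleylacetoacetate isomerase serves the breakdown of tyrosine, spanned 10.5 to 23.2 in WT and 11.7 to 23.4 in ARSL KO, with a difference of 0.04 (SE 0.116) that was -0.05 (SE 0.137) without the 3 libraries.

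All 9 genes passed the filter on low values, Gstm2 only through its WT level (16.7 normalised reads in WT and 7.70 in ARSL KO). On the log2-like scale 5 were lower and 4 higher in the knockout, with a median difference of -0.35, where all 8431 tested genes had a median of 0.0089. Without WT 3, WT 4 and ARSL KO 4 the median of the 9 was -0.18, with 6 lower and 3 higher. In 4 of the 9 every knockout library was below every WT library, beside 2.4% of all tested genes, and in 0 was every knockout library above, beside 1.86%. Since the set was picked in this contrast, nothing is read from these counts. In these bulk samples less RNA in each cell and fewer cells that make the RNA cannot be told apart.

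**Figure D2:**
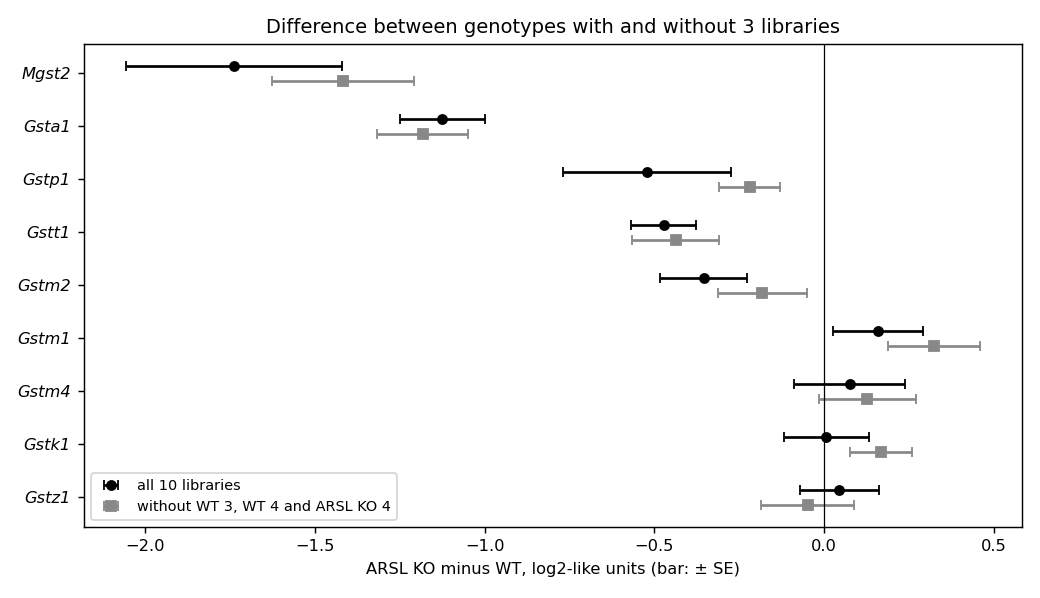
Difference ARSL KO minus WT in log2-like units (x axis, bars ± SE) for each gene, with all 10 libraries (black circles) and without WT 3, WT 4 and ARSL KO 4 (grey squares). Gsta1 and Gstt1 differ little between the settings, at -1.12 and -1.18 for Gsta1, while Gstp1 goes from -0.52 to -0.22 and Mgst2 from -1.74 to -1.42.

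Within WT the set divided by how it stood in WT 3 and WT 4. The mean of these libraries relative to WT 1, WT 2 and WT 5 was 2.39 for Mgst2, 2.35 for Gstm2 and 2.25 for Gstp1. It was 1.62 for Gstm4, 1.598 for Gstm1 and 1.46 for Gstk1. It was 1.14 for Gstt1, 0.993 for Gsta1 and 0.807 for Gstz1. In 6 of the 9 genes both WT 3 and WT 4 exceeded the other 3 WT libraries; the exceptions were Gstt1, Gsta1 and Gstz1. ARSL KO 4 was the highest knockout library for 6 of the 9, with 1.79 times the mean of the other knockout libraries for Gstm4 and 1.71 times for Gstp1. The libraries were picked out by the first component of all genes, so these ratios are a description. Of the 13 chondrocyte markers with a row, 12 were also higher in both WT 3 and WT 4 than in the other WT libraries. The exception was Sox5, and the ratios ran from 0.918 for Sox5 to 2.35 for Matn3. Between genotypes 10 of these 13 markers were lower in the knockout and 3 higher, with a median of -0.08, or 0.10 without the 3 libraries. An unadjusted limma p under 0.05 was found for 5 of them, beside 13.5% of all tested genes. After adjustment 1 of the 13 was called lower, beside 0.878% of all tested genes. This was Col11a1, a chain of cartilage collagen (difference -1.16, SE 0.229, limma adjusted p = 0.0207). Without ARSL KO 1, 2, 3 or 5 its adjusted p was 0.0669 to 0.0834 with a difference of -1.16 to -1.10. Without WT 3, WT 4 and ARSL KO 4 together, where 3.56% of all tested genes were called, Col11a1 differed by -0.85 (SE 0.0934, limma adjusted p = 1.45e-06). Col9a2, a chain of another cartilage collagen, was then higher by 0.33 (SE 0.0941, limma adjusted p = 0.0483). With all libraries Col9a2 differed by -0.03 (SE 0.214, limma adjusted p = 0.968). Since these libraries were left out for standing apart in these same data, the p-values without them are a description. Of the markers of other cells 1 per list was tested and 0 passed, with differences of 0.08 for Thy1 (fibroblasts), 0.09 for Cd14 (leukocytes) and -0.30 for Vwf (endothelium; limma adjusted p = 0.854, 0.7 and 0.47). The part of chondrocyte markers in the levels of the transferases was not tested.

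By position, Gstm2, Gstm1 and Gstm4 follow each other on chromosome 2 in the RefSeq order of GRCr8, and Gsta1 lies next to Gsta6 on chromosome 9. The sources used here do not say how the authors' counting treated reads shared by such similar genes, so values of single Gsta and Gstm genes are uncertain. Tested genes near Mgst2 and Gsta1 gave the following values, a comparison chosen after the data had been seen. Beside Mgst2, Rab33b differed by 0.08 (SE 0.115) and Foxo1 by 0.07 (SE 0.162) on the log2-like scale (limma adjusted p = 0.773 and 0.887). On one side of Gsta1, Ogfrl1 differed by -0.18 (SE 0.120, limma adjusted p = 0.539). Untested genes lay between, 1 on either side of Mgst2 and 5 between Gsta1 and Ogfrl1. Rab33b, Foxo1 and Ogfrl1 did not pass the test, beside 1.14% of all tested genes that did. At that share so few genes would seldom be called, so nothing is read from this.

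Other transferases of the family had a row under their symbol in 3 of 24 cases. Since 813 rows carried no symbol, the others are not shown to be absent. Gsta6 had 7.84, 9.68, 19.7, 27.7 and 18.0 normalised reads in WT 1 to 5 and 12.9, 4.34, 4.62, 8.78 and 4.48 in ARSL KO 1 to 5, and was not tested, its mean on the log2-like scale being just under the filter. WT 1 and WT 2 lay within the range of the knockout libraries, and WT 4 was the highest. Gsta4 had at most 17.5 normalised reads and was not tested either. Gstcd, which carries a glutathione transferase-like domain, had 27.4 ± 7.12 normalised reads in WT and 37.6 ± 4.50 in ARSL KO (SD, n = 5 each; difference 0.25, SE 0.107, limma adjusted p = 0.32), opposite in sign to Gsta1 and Mgst2.

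The other genes of glutathione metabolism were taken from 6 lists with 154 genes, of which 79 had a row and 72 were tested, Gstcd among them. Of the 72 genes 1 rose and 0 fell (limma, Benjamini-Hochberg adjusted p under 0.05 over all tested genes), beside 0.261% and 0.878% of all tested genes, or 1.14% in either direction. An unadjusted p under 0.05 was found for 18 of them, beside 13.5% of all tested genes. Their median difference was 0.04. The gene that rose was Ugdh, which makes UDP-glucuronic acid, the sugar donor for glucuronidation and for glycosaminoglycan chains. It had 722, 726, 624, 524 and 624 normalised reads in WT 1 to 5 and 912.5, 944, 1009, 915 and 1163 in ARSL KO 1 to 5. All knockout libraries were above all WT libraries, 1.54-fold by the means (difference 0.59, SE 0.106, limma adjusted p = 0.0169). Without ARSL KO 3 the difference was 0.58 with an adjusted p of 0.0589, and without ARSL KO 5 it was 0.53 with an adjusted p of 0.0532, so that 0 of 72 were called although the difference was nearly as large.

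In the list of glutathione synthesis, precursor uptake and breakdown, 0 of 16 tested genes passed, with a median of 0.10. The rate-limiting enzyme of glutathione synthesis has a catalytic subunit, Gclc, and a modifier subunit, Gclm. Gclc had 66.8 ± 20.2 normalised reads in WT and 83.4 ± 40.0 in ARSL KO, and Gclm had 43.3 ± 9.02 and 49.7 ± 9.75 (SD, n = 5 each; limma adjusted p = 0.687 for both). Gsr, which regenerates reduced glutathione, differed by 0.25 (SE 0.185, limma adjusted p = 0.57). The smallest p of the list was that of Lap3, a leucine aminopeptidase of the cytosol, with a difference of -0.31 (SE 0.115, limma adjusted p = 0.244), or -0.39 (SE 0.111, adjusted p = 0.048) without the 3 libraries.

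Among glutathione peroxidases, glutaredoxins and other users of glutathione 0 of 16 passed, with a median of 0.05. Gpx4, the peroxidase that acts on membrane lipid hydroperoxides, had 663 ± 82.9 normalised reads in WT and 672 ± 76.2 in ARSL KO (SD, n = 5 each; limma adjusted p = 0.951). Etfdh, a mitochondrial oxidoreductase of electron transfer rather than an enzyme that uses glutathione, had the smallest p, and all knockout libraries, at 14.8 to 21.5 normalised reads, were below all WT libraries, at 23.5 to 32.5 (difference -0.30, SE 0.095, limma adjusted p = 0.164).

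In the list of NRF2 and its textbook targets 1 of 19 rose, Ugdh, and 18 did not pass, with a median of 0.05. Nfe2l2 itself differed by 0.22 (SE 0.101, limma adjusted p = 0.348), and its inhibitor Keap1 by 0.0057 (SE 0.140, limma adjusted p = 0.99). Nqo1, a quinone reductase and a common readout of NRF2, had 511 ± 245 normalised reads in WT and 793 ± 194 in ARSL KO (SD, n = 5 each; difference 0.69, SE 0.270, limma adjusted p = 0.263). WT 3 and WT 4 had the lowest Nqo1 of all 10 libraries, 287 and 235, and without the 3 libraries the knockout mean was 1.25 times that of WT. Txnrd1 and Hmox1 differed by 0.11 (SE 0.192) and -0.06 (SE 0.198; limma adjusted p = 0.833 and 0.926). Gclc, Gclm, Gsr, Gpx4, Nfe2l2, Keap1, Nqo1, Txnrd1 and Hmox1 are named for their role, after their values were seen.

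Among genes for conjugate export and mercapturate formation 0 of 6 passed, with a median of 0.02. Abcg2, a drug efflux transporter with the smallest p there, differed by 0.29 (SE 0.164, limma adjusted p = 0.464). Among other conjugating and detoxifying enzymes 0 of 14 passed, with a median of -0.03. Por, the reductase that feeds electrons to cytochromes P450, had 395 to 479 normalised reads in WT and 316 to 378 in ARSL KO. Its groups did not overlap, and the difference was -0.35 (SE 0.086, limma adjusted p = 0.0794). Without WT 3, WT 4 and ARSL KO 4, a setting with 3.56% of all tested genes called, 7 of the 72 genes passed. Ugdh, Cyp51 and Aldh7a1 were then higher in the knockout by 0.52, 0.49 and 0.43. Slc48a1, Tpmt, Blvrb and Lap3 were lower by -0.55, -0.51, -0.44 and -0.39. Gclc, Gclm and Gss, the genes of glutathione synthesis proper, were not among them. At a share of 3.56% so few genes would seldom be, so nothing is read from this.

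**Figure D3:**
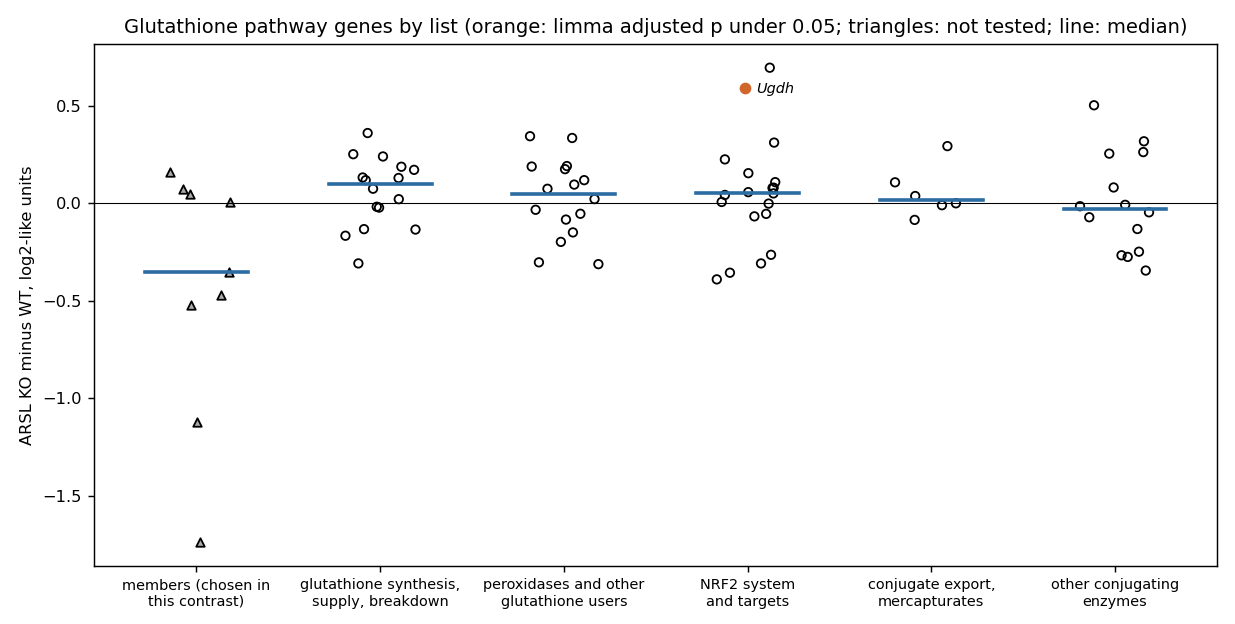
Difference ARSL KO minus WT in log2-like units (y axis) for the 9 genes and for the tested genes of 5 other lists; grey triangles are the 9 genes, shown without a test since they were chosen in this contrast, the orange point has a limma adjusted p under 0.05 over all tested genes, open circles do not, and blue lines are medians. Ugdh is the 1 orange point, and the medians of the 5 other lists lie between -0.03 and 0.10.

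The genes whose pattern over the 10 libraries was nearest to that of Gsta1 and Mgst2 were found by the root mean square difference between profiles, each profile being the log2-like values less the gene's own mean, over 8431 tested genes. The profiles share the genotype difference for which the set was picked, so the likeness is a description. Gsta1 was nearest to Marcks (0.18), Cryab (0.21) and Cald1 (0.25), where the profile of Gsta1 itself had a root mean square of 0.59. Marcks and Cald1 encode proteins that bind actin, and Cryab a small heat-shock chaperone. Marcks had 173 ± 28.96 normalised reads in WT and 62.4 ± 24.04 in ARSL KO (SD, n = 5 each), lower in the knockout by 2.77-fold, with its lowest values in ARSL KO 1 and ARSL KO 2, the libraries in which Gsta1 was lowest too.

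Mgst2 was nearest to Ecrg4 (0.23), PCOLCE2 (0.38) and Ucma (0.43), where the profile of Mgst2 itself had a root mean square of 1.05. All 3 encode secreted proteins: a peptide precursor, an enhancer of procollagen processing and a cartilage matrix protein. Each of them had WT 3 and WT 4 as its highest libraries and ARSL KO 5 as its lowest, as Mgst2 did. WT 3 and WT 4 had 2.37, 2.09 and 2.83 times the level of the other WT libraries for Ecrg4, PCOLCE2 and Ucma, beside 2.39 for Mgst2. The lists of nearest genes of Gsta1 and Mgst2 shared 0 genes. The profiles of Gsta1 and Mgst2 lie too far apart for lists this short to overlap, so nothing is read from this.

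**Figure D4:**
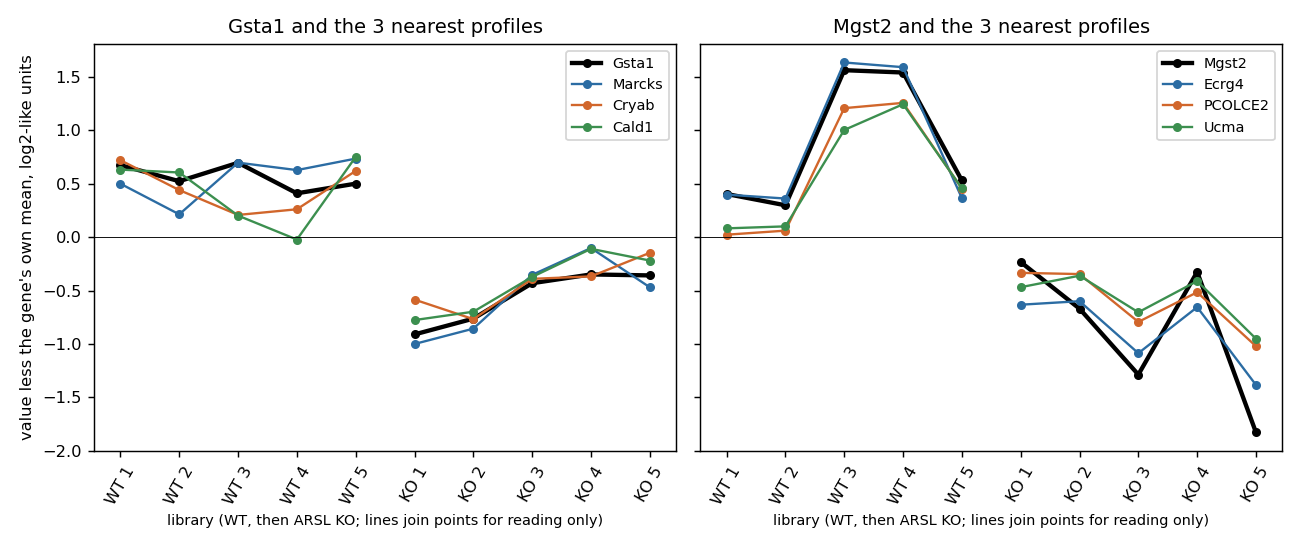
Log2-like values less each gene's own mean (y axis) in the 10 libraries (x axis) for Gsta1 (left, black) and Mgst2 (right, black). Each is shown with the 3 nearest profiles among tested genes outside the set that have a gene name. Lines join points of a genotype for reading only. Mgst2 and its neighbours peak in WT 3 and WT 4, whereas Gsta1 is level across WT and lowest in ARSL KO 1 and ARSL KO 2.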

How the data were processed

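RNA of 5 WT and 5 ARSL KO libraries was sequenced by a company's digital mRNA-seq service (labels' protocols). Reads were processed with bcl2fastq, STAR 2.7.11a and HTSeq on rn6, per the submitters' processing notes. The authors deposited 1 table of log2-like, variance-stabilized values normalized for library size. The sources used here do not give the transforming tool, the gene filter or the use of strand. With X as 2 to the power of a value and M as that of the lowest value, 4.42, normalised reads are (X - M) squared over X. Multiplied by each library's size factor they were whole within 1.6e-09 reads. The totals cover listed genes only, each with at least 30 reads in all.

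The 8431 genes whose mean exceeded the lowest value by 1 or more were tested with limma 3.58.1 in R 4.3.3, with an intensity trend, two-sided, Benjamini-Hochberg adjusted, called under 0.05. The script was tested on simulated data. Replicate libraries differed by more than sampling noise (chi-square per degree of freedom at least 1.85), which does not show that cultures were independent, so p-values measure the spread between these libraries. Named were all 9 genes, other transferases with a row, and up to 4 called genes per direction of each list or else the smallest p. The 3 nearest profiles of Gsta1 and of Mgst2 were also named, among genes outside the set with a gene name. The genes and lists were chosen with earlier results of these data known. The alternatives are a replicate block, other filters, scalings and variance settings, limma-voom on recovered reads, and libraries left out. Sequences are RefSeq's. Figures were drawn with matplotlib 3.10.9. One neighbouring gene is not reported here.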

Additional observations from a re-analysis of the deposited data

Results flagged for a closer look

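Gstp1 in ARSL KO 4 stood apart from the other knockout libraries, with 978 normalised reads beside 519 to 609.8 in the others; its gap to the nearest library was 0.75 of the whole range of the group on the log2-like scale, above the critical value of 0.71 for 5 samples. It was the 1 such case among 54 groups of 5 libraries looked at, where chance gives about 1 in 20. ARSL KO 4 was also the knockout library with the highest score on the first principal component of all genes, and the part of that in the Gstp1 level was not tested.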

How the results depend on the processing

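Over all tested genes 96 were called, 60 with the stricter filter, 219 with array weights, 300 without WT 3, WT 4 and ARSL KO 4 together, and 33 to 101 when 1 library was left out (leaving out WT 3 gave 62, ARSL KO 1 gave 53, ARSL KO 2 or 5 gave 37 and ARSL KO 3 gave 33). Of the genes in the 6 other pathway lists 1 was called, 5 with array weights, 7 without those 3 libraries, and 0 to 3 with 1 library left out (0 without ARSL KO 3 or 5, 3 without ARSL KO 4). Por passed with array weights (limma adjusted p = 0.0489). With a replicate block 136 genes and 2 pathway genes were called; the numbers share no stated batch, the deviations of same-numbered libraries correlated from -0.29 to 0.59 over 5 pairs, and 4 of 10 libraries were closest to their own number. On the scale of limma-voom, which does not compress small reads, the differences of Gsta1, Gstm2 and Gstt1 were -1.66, -0.95 and -0.997; every other member difference stayed within 1 replicate SD of its value in each setting run. With 1 library left out the differences lay from -1.18 to -1.04 for Gsta1, -1.90 to -1.50 for Mgst2, -0.50 to -0.43 for Gstt1, -0.41 to -0.28 for Gstm2 and -0.67 to -0.34 for Gstp1. Thy1, a fibroblast marker, differed by 0.08 with all libraries (limma adjusted p = 0.854). Its sign turned without WT 1, at -0.027, and the difference was up to 0.16 with another library left out. Low read numbers limit Gstm2, Gstz1 and Gstt1, where 1 read is a large share of the level.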

Other observations

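Relative to WT 1, WT 2 and WT 5, the mean of WT 3 and WT 4 was above 1 for 7 of the 9 transferases (median 1.598, from 0.807 for Gstz1 to 2.39 for Mgst2). In the list of NRF2 and its textbook targets it was above 1 for 7 and below 1 for 12 of 19 tested genes, with a median of 0.869 and a range from 0.385 for Nqo1 to 1.96 for Maff. Txnrd1 stood at 0.522 and Keap1 at 0.505, while Ftl1, a ferritin subunit, stood at 1.35 and Me1 at 1.70. In the list of glutathione synthesis, precursor uptake and breakdown it was above 1 for 7 and below 1 for 9 of 16, with a median of 0.808. The range there was from 0.374 for Cth, which makes cysteine from cystathionine, to 3.90 for Oplah, which recycles 5-oxoproline from glutathione breakdown. Both lists thus spread to either side of 1. The genes named here were chosen after their values were seen, the libraries were picked out by their overall profile, and no test was made.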
